A study of Mus musculus with 2 samples.

Results

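The 8 genes described here are Tnf, which encodes the cytokine tumour necrosis factor (TNF), its receptor genes Tnfrsf1a and Tnfrsf1b, the feedback genes Tnfaip3, Nfkbia and Nfkbiz, and the NF-kB subunit genes Nfkb1 and Relb. They were taken by symbol from the 27998 gene IDs of the 2 single-cell count matrices, and all 8 were found in both. One library came from yap1flox/flox lyz2cre mice and the other from wild-type (WT) mice, both C57BL/6, both given carbon tetrachloride (CCl4), a liver toxin, 4 times. Each held liver nonparenchymal cells, the cells left in suspension after slow centrifugation has spun down most hepatocytes, from a sample of 3 mice. Lyz2-Cre is active in monocytes, macrophages and neutrophils, and the Cre allele went with the genotype, since no Cre is named for the WT mice. There is 1 library per genotype, so nothing separates the genotype from the mice or the library, and no difference was tested. Every interval below is a 95% interval that covers counting error only, not the spread between mice or between cells.

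TNF is released mainly by activated macrophages, neutrophils and lymphocytes. It signals through TNFR1 (Tnfrsf1a), found on most cell types, and TNFR2 (Tnfrsf1b), found mostly on leukocytes and endothelium. Both lead to the release of NF-kB dimers from their inhibitors, and NF-kB then switches on genes that shut the pathway down again. Among these, Nfkbia encodes IkBa, which holds NF-kB in the cytoplasm, and Tnfaip3 encodes A20, an enzyme that removes ubiquitin chains from the receptor complex. Nfkbiz encodes IkBz, a nuclear cofactor that is itself an NF-kB target. Nfkb1 encodes p105 and p50, of the canonical branch, and Relb encodes the partner of p52 in the non-canonical branch. In the liver, TNF from macrophages has a part in hepatocyte death and regeneration after toxic injury.

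The yap1 library held 4731 barcodes and 34234353 UMIs (unique molecular identifiers, each standing for 1 captured RNA molecule), and the WT library 5269 barcodes and 30386545 UMIs. After filters on UMIs, genes and mitochondrial share, 4149 yap1 barcodes (median 5323 UMIs) and 4847 WT barcodes (median 4115 UMIs) remained, and 5 barcode sequences occurred in both. Cells were assigned to types by marker genes, none of which is among the 8. Each name below stands for such a gate and should be read as "like", not as a sorted population. The 12 types with at least 50 cells in each library held 3694 yap1 cells and 4238 WT cells. Of the 10 genes that led each gate by fold, 5 were its own markers in Kupffer cells (among them Marco, Timd4 and Clec4f), 1 in monocyte-derived macrophages (Gpnmb) and 1 in classical monocytes (Vcan). Since the gates were built on these markers, such counts do not check the gates. The genes that led the classical monocyte gate also included Elane, Ctsg, Mpo and Prtn3, granule genes of myeloid progenitors. Yap1 itself could not check the labels, since the gated myeloid cells held between 0 and 2 Yap1 UMIs per type and library. Levels are given as CPM, the UMIs of a gene per 1000000 UMIs of the type. Lyz2, the gene that carries the Cre, had a ratio of CPM in yap1 over WT under 1 in every type compared, for example 0.4984 in monocyte-derived macrophages.

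Tnf, the ligand, was highest in neutrophils in both libraries, with nonclassical monocytes and monocyte-derived macrophages after them, and no UMI of it was seen in hepatocytes. Neutrophils held 140 CPM of Tnf (122 to 160) in the yap1 library and 190.5 CPM (168 to 215) in the WT library. The next type was nonclassical monocytes in yap1, where neutrophils stood 3.41 times higher (2.56 to 4.60), and monocyte-derived macrophages in WT. Monocyte-derived macrophages held 28.2 CPM (24.7 to 31.9) in yap1 and 57.5 CPM (50.7 to 65.0) in WT, and the neutrophil level was 4.98 times (4.13 to 6.00) that of the macrophages in yap1 and 3.31 times (2.78 to 3.94) in WT. Although neutrophils gave 4.71% of all UMIs in yap1 cells and 4.70% in WT cells, they gave 27.1% of the Tnf UMIs in yap1 and 27.8% in WT. Monocyte-derived macrophages, which are much deeper (a median of 16115 UMIs per cell in yap1 and 13617 in WT, against 3008 and 2841 in yap1 and WT neutrophils), gave 29.5% of the Tnf UMIs in yap1 and 26.8% in WT.

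Nonclassical monocytes held 41.1 CPM of Tnf in yap1 and 38.7 CPM in WT, classical monocytes 14.2 CPM in yap1 and 26.4 CPM in WT, and Kupffer cells, the resident macrophages, 11.7 CPM (10 UMIs) in yap1 and 15.8 CPM (24 UMIs) in WT. T cells held 12.8 CPM in yap1 and 8.97 CPM in WT. Of the 12 steps between neighbouring types when all 13 types shown are ranked by the mean of their log2 Tnf levels in both libraries, 1, the step from neutrophils to macrophages, had intervals apart in both libraries. No Tnf UMI was seen in 108 yap1 hepatocytes, or in 125 WT hepatocytes. By the floor of 3 counts this allows a share of cells with a captured Tnf UMI of up to 2.78% in yap1 and 2.40% in WT, and sets no limit on cells that express the gene. Sinusoidal endothelial cells had a Tnf UMI in 1.26% of yap1 cells and 0.466% of WT cells at median depths of 2191 and 2236 UMIs. B cells had one in 0.329% of yap1 cells and 0.6998% of WT cells at median depths of 4401.5 and 3659.5 UMIs, and of the 26 WT B-cell UMIs 15 came from 1 cell.

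Tnf RNA was concentrated in a minority of cells. A Tnf UMI was found in 18.1% of yap1 neutrophils (14.7% to 21.9%) and 23.1% of WT neutrophils (19.1% to 27.5%), and in 23.1% of yap1 macrophages (19.6% to 27.0%) and 29.1% of WT macrophages (24.3% to 34.2%). With each cell thinned to 1000 UMIs the shares were 6.96% of yap1 and 12.8% of WT neutrophils, and 1.93% of yap1 and 4.80% of WT macrophages, after 76 yap1 and 52 WT neutrophils and 5 yap1 and 4 WT macrophages too shallow for this were left out. Single neutrophils reached 35 Tnf UMIs in yap1 and 25 in WT, and the 5 highest cells held 40.5% of the neutrophil Tnf UMIs in yap1 and 29.2% in WT.

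**Figure D1:**
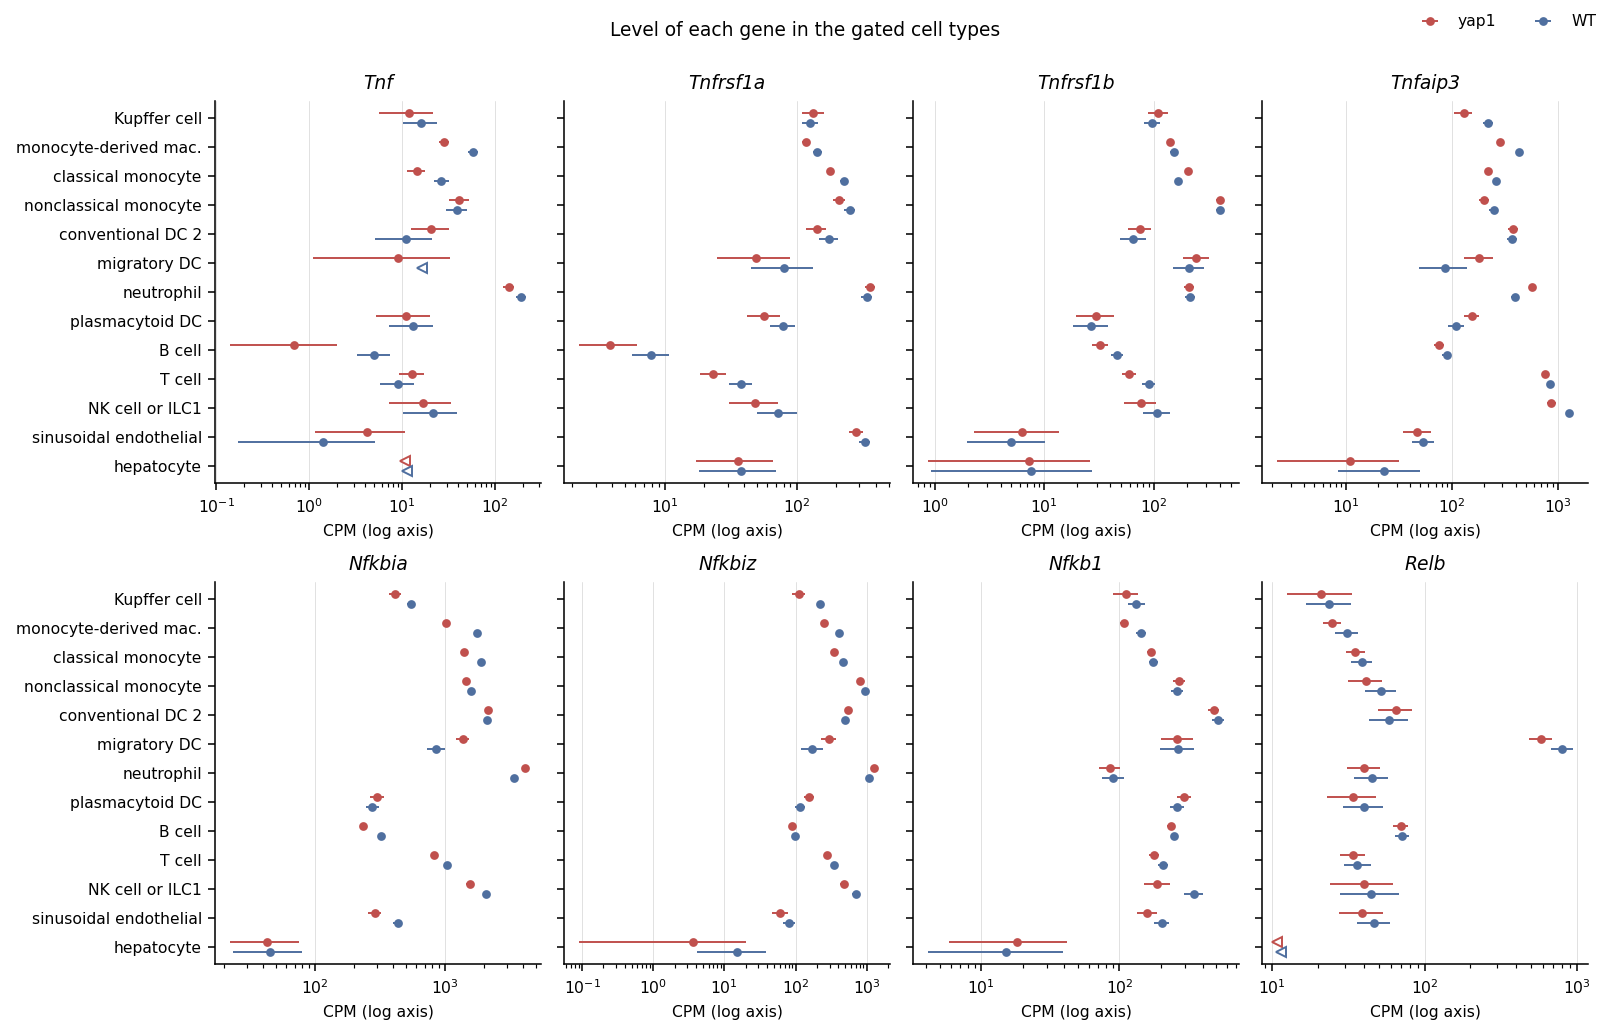
Level of the 8 genes in 13 gated cell types. Points are CPM of the summed UMIs (log axis, scale differs between panels) in the yap1 and WT libraries, bars are 95% Poisson intervals, and open triangles mark the level that 3 UMIs would give where none was seen. Tnf, Nfkbia and Nfkbiz are highest in neutrophils, Tnfaip3 in NK cells or ILC1, Nfkb1 in conventional dendritic cells 2 and Relb in migratory dendritic cells.

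The receptor genes ranked the cell types differently. Tnfrsf1a was highest in neutrophils, with 363 CPM in yap1 and 340 CPM in WT, and in sinusoidal endothelial cells, the lining of the liver capillaries, with 284 CPM (251 to 320) in yap1 and 330 CPM (300.3 to 361) in WT. The neutrophil level exceeded the endothelial level in yap1 (1.28 times, 1.10 to 1.48) but its interval spanned equality in WT (1.03 times, 0.907 to 1.18). Nonclassical monocytes (210.4 CPM in yap1, 253 CPM in WT) and classical monocytes (180.1 CPM in yap1, 229 CPM in WT) followed. Conventional dendritic cells 2 (142 CPM in yap1, 175 CPM in WT), monocyte-derived macrophages (118 CPM in yap1, 144 CPM in WT) and Kupffer cells (133 CPM in yap1, 126.5 CPM in WT) came after those. Lymphocytes were at the low end, with 23.4 CPM in yap1 T cells and 37.8 CPM in WT T cells, and 3.86 CPM in yap1 B cells and 7.88 CPM in WT B cells.

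Tnfrsf1b was highest in nonclassical monocytes, the patrolling monocytes of the vessel wall, with 401 CPM (370 to 435) in yap1 and 397 CPM (366 to 430) in WT, and 85.8% of those yap1 cells and 84.1% of those WT cells had a UMI. It was 1.65 times (1.25 to 2.22) the level of the next type in yap1, migratory dendritic cells, and 1.86 times (1.62 to 2.15) that of the next type in WT, neutrophils. The endothelial cells that ranked second for Tnfrsf1a ranked last for Tnfrsf1b, with 6.28 CPM (6 UMIs) in yap1 and 4.94 CPM (7 UMIs) in WT. T cells were between these, at 59.6 CPM in yap1 and 89.4 CPM in WT.

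Nfkbia, the inhibitor gene, followed Tnf in being highest in neutrophils, with 4121 CPM in yap1 and 3433 CPM in WT. Its level there was 1.91 times (1.82 to 2.01) that of conventional dendritic cells 2, the next type, in yap1 and 1.62 times (1.53 to 1.71) in WT. At the other end, hepatocytes held 12 Nfkbia UMIs in each library, or 43.2 CPM in yap1 and 45.5 CPM in WT. Nfkbiz, the nuclear cofactor gene, had 1250.5 CPM in yap1 neutrophils and 1094 CPM in WT neutrophils, followed by nonclassical monocytes with 811 CPM in yap1 and 942 CPM in WT. Tnfaip3, the A20 gene, ran differently and was highest in NK cells or ILC1, with 873 CPM (791 to 961) in yap1 and 1288 CPM (1187 to 1395) in WT, and in T cells, with 758 CPM in yap1 and 853 CPM in WT. T cells gave 25.3% of all Tnfaip3 UMIs in yap1 and 24.1% in WT, with 9.88% of all yap1 UMIs and 8.96% of all WT UMIs. B cells were low for Tnfaip3, at 76.3 CPM in yap1 and 89.2 CPM in WT.

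The stretch around the start of 5 of the 8 genes (Tnf, Tnfrsf1a, Tnfrsf1b, Tnfaip3 and Nfkbia) was given by RefSeq on GRCm38.p6, as 250 bases before to 50 after the annotated start. The kappaB consensus, the 10-letter motif that NF-kB dimers bind, was searched on both strands. It was found in Tnfaip3 and Nfkbia, the genes for A20 and IkBa, and in none of the windows of Tnf, Tnfrsf1a and Tnfrsf1b, which says only that these letters are not within the window. Of all 32851 windows searched, 4.50% held a match, and of all 27025 genes 5.14% had a match in any window. The windows of the 2 feedback genes are shown because they hold the motif, in capitals, at bases -29 to -20 from the start of Nfkbia (chr12:55492598-55492897, minus strand) and at -125 to -116 and -12 to -3 from that of Tnfaip3 (chr10:19015361-19015660, minus strand). A second Tnfaip3 window held no match.
Nfkbia: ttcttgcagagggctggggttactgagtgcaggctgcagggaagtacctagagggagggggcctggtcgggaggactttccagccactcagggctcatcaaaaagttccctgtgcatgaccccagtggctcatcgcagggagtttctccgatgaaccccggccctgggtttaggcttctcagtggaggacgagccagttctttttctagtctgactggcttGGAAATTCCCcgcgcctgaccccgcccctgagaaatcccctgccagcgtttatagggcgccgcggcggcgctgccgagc
Tnfaip3: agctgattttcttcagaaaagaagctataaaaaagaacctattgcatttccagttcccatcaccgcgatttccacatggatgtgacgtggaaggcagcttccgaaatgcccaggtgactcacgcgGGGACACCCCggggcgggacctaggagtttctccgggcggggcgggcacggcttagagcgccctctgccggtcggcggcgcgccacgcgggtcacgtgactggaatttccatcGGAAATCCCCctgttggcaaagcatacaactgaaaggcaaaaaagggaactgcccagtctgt
A match is a run of letters, and binding was not measured here.

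Nfkb1 was highest in conventional dendritic cells 2, with 479 CPM (436 to 526) in yap1 and 518 CPM (470 to 570) in WT. That was 1.63 times (1.40 to 1.91) the level of the next type in yap1, plasmacytoid dendritic cells, and 1.499 times (1.25 to 1.81) that of the next type in WT, NK cells or ILC1. Neutrophils, highest for Nfkbia, were second to last for Nfkb1, at 85.4 CPM in yap1 and 89.9 CPM in WT. Nfkb1 overlaps another annotated gene, Gm43430, on its strand, so some of its UMIs cannot be assigned with certainty. Relb was highest by CPM in a small population, the 25 yap1 and 26 WT migratory dendritic cells, the Ccr7 and Fscn1 cells that travel to lymph nodes. They held 578 CPM (482 to 687, from 128 UMIs) in yap1 and 801 CPM (677 to 940, from 149 UMIs) in WT. That was 8.27 times (6.67 to 10.2) the level of B cells, the next type, in yap1 and 11.3 times (9.27 to 13.7) in WT. A Relb UMI was found in 88.0% of these yap1 cells and 88.5% of these WT cells, and the 5 highest cells held 48.4% of the UMIs in yap1 and 47.0% in WT. Every other type shown was at or below 71.0 CPM in either library. Relb was not confined to these cells. B cells gave 22.4% of all Relb UMIs in yap1 and 25.15% in WT, and migratory dendritic cells 9.32% in yap1 and 10.2% in WT. A Relb UMI was also found in 58.6% of yap1 and 50% of WT conventional dendritic cells 2.

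Between the genotypes, monocyte-derived macrophages had the most genes past the fold used here: all 8 genes had ratios of yap1 over WT under 1, and 6 of the 8 had intervals below 1, against 11.0% of all genes (with 10.9% above 1). Across the 10218 genes with at least 20 UMIs in these cells, 46.6% were lower in yap1. The fold is 1.5, and 4 of the 8 were lower by more than that (Tnf, Nfkbia, Nfkbiz and Tnfaip3), against 5.33% of all genes, while 0 of the 8 were higher by it, against 6.55% of all genes. The median log2 ratio of the 8 was -0.51, with 0.02 over all genes. Tnf had 240 UMIs in 523 yap1 cells and 258 in 337 WT cells, a ratio of 0.490 (0.409 to 0.586). Nfkbia was at 1015 CPM in yap1 and 1773 CPM in WT, a ratio of 0.572 (0.555 to 0.590). Nfkbiz was at 250 CPM in yap1 and 408 CPM in WT (ratio 0.612, 0.574 to 0.651), and Tnfaip3 at 286 CPM in yap1 and 432 CPM in WT (ratio 0.663, 0.624 to 0.704). The shares of cells with an Nfkbia UMI were 90.6% in yap1 and 89.6% in WT. Nfkb1 was at 0.747 (0.674 to 0.827) and Tnfrsf1a at 0.817 (0.739 to 0.903), and the intervals of Relb (0.808) and Tnfrsf1b (0.932) spanned 1. The 5 highest macrophages held 15% of the Tnf UMIs in yap1 and 31.8% in WT, and without those cells the Tnf ratio was 0.6055. With each cell thinned to 1000 UMIs the Tnf ratio was 0.321, while those of Nfkbiz (0.824) and Tnfaip3 (0.797) no longer passed the fold. The Tnfaip3 ratio lies at the edge of the fold, and was also short of it with mixed barcodes kept (0.672), with mitochondrial, ribosomal protein, hemoglobin and hepatocyte genes left out of the total (0.680) and with cells weighted equally (0.707).

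**Figure D2:**
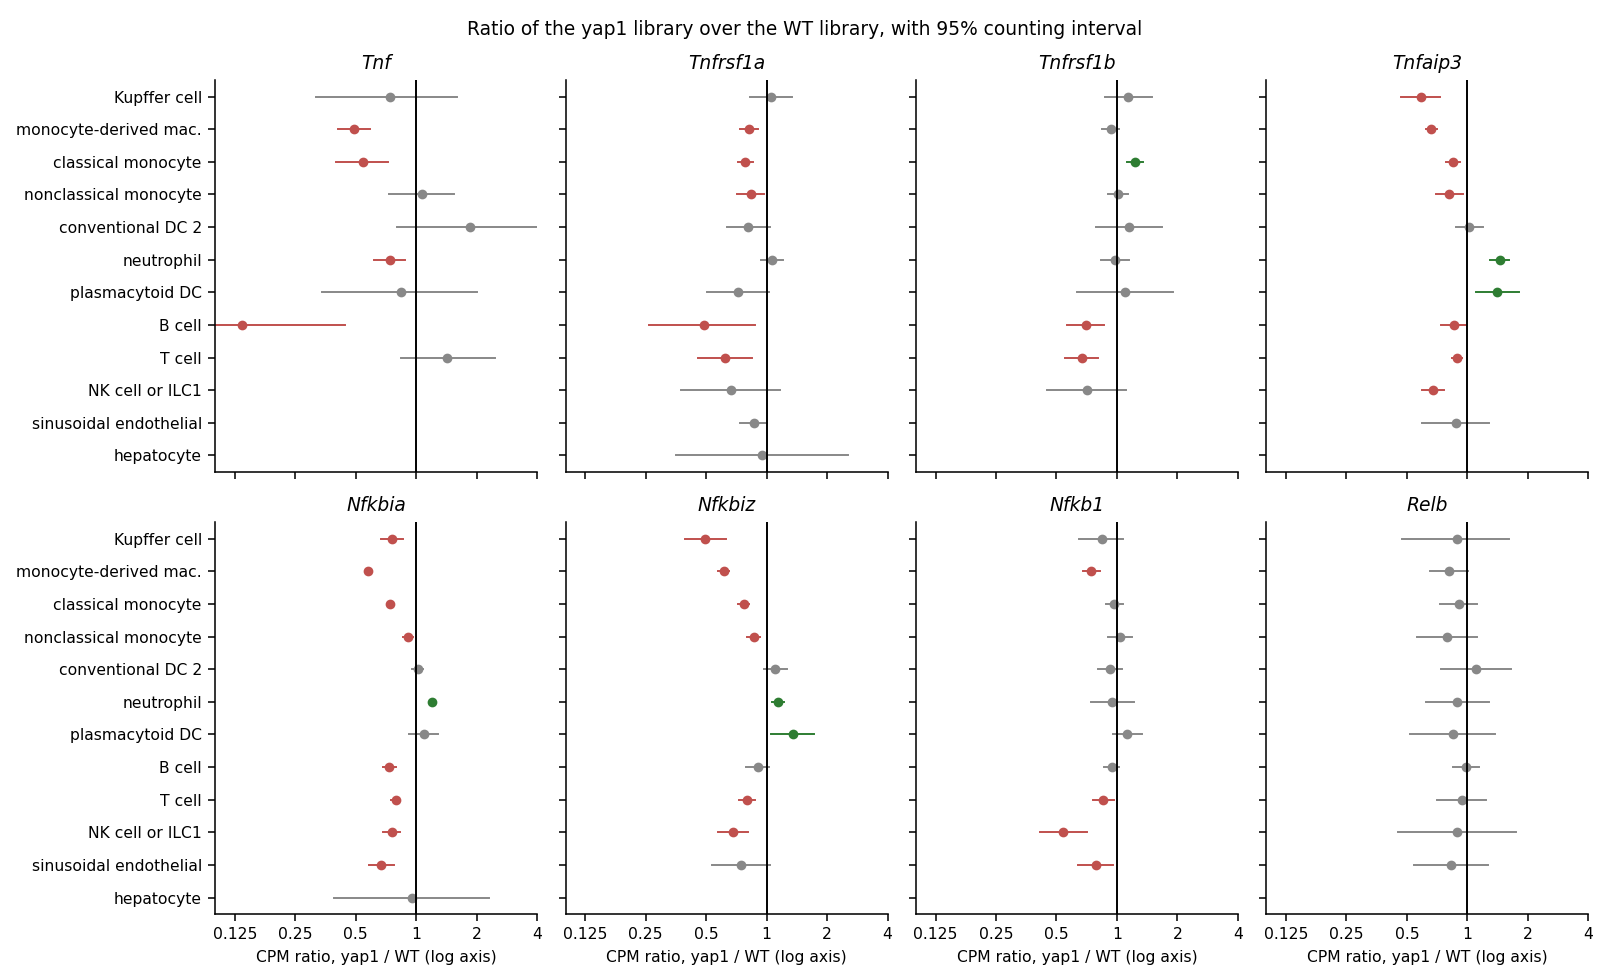
Ratio of the CPM in the yap1 library over that in the WT library for each gene and cell type with at least 20 UMIs (log axis). Bars are 95% counting intervals, in red where they lie below 1, green above 1 and grey where they span 1; those of Tnf in B cells and conventional dendritic cells 2 run past the axis. In monocyte-derived macrophages all 8 points lie below 1. In neutrophils Tnfaip3, Nfkbia and Nfkbiz lie above 1 while Tnf lies below, and the median gene is at 1.15. Scaled to the median gene, Nfkbiz in neutrophils is at 0.991.

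Other genes of the pathway in macrophages were read from lists. Of all macrophage genes with at least 20 UMIs, 46.6% had ratios under 1, and their median log2 ratio was 0.02. By more than 1.5-fold, 5.33% of them were lower and 6.55% higher. All 7 other NF-kB subunit and inhibitor genes had ratios under 1 (median log2 -0.46), among them Rel, the c-Rel subunit (122 CPM in yap1, 176 CPM in WT; ratio 0.692, 0.631 to 0.761), and Nfkbie, which encodes IkBe (41.0 CPM in yap1, 64.7 CPM in WT; ratio 0.633, 0.540 to 0.743). All 14 inflammatory NF-kB target genes had ratios under 1 and 8 were lower by more than 1.5-fold, with a median log2 of -0.64. The cytokine gene Il1a was at 19.8 CPM in yap1 and 44.8 CPM in WT (ratio 0.442, 0.358 to 0.546), and the chemokine gene Ccl3 at 450 CPM in yap1 and 492 CPM in WT (ratio 0.914, 0.867 to 0.964). The receptor-complex and IKK list was more even, with 12 of 19 under 1 and a median log2 of -0.12; its lowest member, Traf1, which encodes a TNF receptor adaptor and is an NF-kB target, had 25.6 CPM in yap1 and 46.2 CPM in WT. Tnfsf9, the 4-1BB ligand gene, had 25.1 CPM in yap1 and 99.0 CPM in WT (ratio 0.254, 0.214 to 0.299). Cflar, whose product c-FLIP restrains caspase-8, had 95.5 CPM in yap1 and 154.5 CPM in WT (ratio 0.618, 0.558 to 0.685). Tnfsf9 is given here without the rest of the TNF family ligand list, and Cflar without the rest of the cell death list. Of the TNF release genes, Adam17, the sheddase, was at 106 CPM in yap1 and 110 CPM in WT (ratio 0.963, 0.862 to 1.08).

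Other values moved with the macrophage result. The 8 Kupffer markers, all detected in both libraries, summed to 322 CPM in yap1 macrophages and 680 CPM in WT macrophages. The 12 hepatocyte transcripts that mark free RNA summed to 366 CPM in yap1 and 503.9 CPM in WT. All 11 of those measured had ratios under 1, against 46.6% of all genes. Of 14 stress and immediate early genes, 10 had ratios under 1 (median log2 -0.24), against 46.6% of all genes. Of the 14, Egr1 was at 0.526 and Fos at 1.18. The part of these lists in the result was not tested.

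In Kupffer cells, 6 of the 8 genes had ratios under 1 (48.0% of 7662 genes tested did), 2 of the 8 were lower by more than 1.5-fold against 9.57% of all genes, and 0 were higher by it against 9.93%. Intervals lay below 1 for 3 of the 8 (6.60% of all genes) and above 1 for 0 (7.58%). Of Kupffer-cell genes with at least as many UMIs as Nfkbia, 27.0% had intervals below 1 and 30.3% above. Nfkbiz was at 111 CPM (95 UMIs) in yap1 and 224 CPM (340 UMIs) in WT, a ratio of 0.496 (0.391 to 0.624), and Tnfaip3 at 129 CPM (110 UMIs) in yap1 and 219 CPM (332 UMIs) in WT, a ratio of 0.588 (0.470 to 0.732). Nfkbia was at 414 CPM in yap1 and 548 CPM in WT (ratio 0.755, 0.665 to 0.856). These sums rest on few cells: the 5 highest cells held 42.9% of the Nfkbia UMIs in yap1 and 29.0% in WT, and a UMI was found in 39.2% of yap1 cells and 35.8% of WT cells. For Tnfaip3 the 5 highest held 59.1% in yap1 and 29.2% in WT, and for Nfkbiz 43.2% in yap1 and 32.65% in WT. A Tnfaip3 UMI was found in 14.4% of yap1 and 15.4% of WT cells. For Nfkbiz this share was higher in yap1, at 16.0% against 12.2% in WT. Median depths were 2805.5 UMIs in yap1 and 2107 in WT. With every cell weighted equally the Nfkbia ratio was 1.198 and that of Tnfaip3 0.906, and with each cell thinned to 1000 UMIs the Nfkbiz ratio was 1.003. The Tnf ratio, 0.740 (0.316 to 1.60) from 10 yap1 and 24 WT UMIs, spanned 1. Macrophage markers summed to 534.5 CPM in the yap1 and 762 CPM in the WT Kupffer gate, with all 8 detected in each, and their part was not tested. The chemokine gene Ccl3 had 56.1 CPM in yap1 and 157.5 CPM in WT (ratio 0.356, 0.256 to 0.488), while Cxcl2 had 523 CPM in yap1 and 464.5 CPM in WT (ratio 1.12, 0.998 to 1.27).

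In classical monocytes, 7 of the 8 genes had ratios under 1 (51.5% of 9767 genes did) and 1 of the 8, Tnf, was lower by more than 1.5-fold, against 6.16% of all genes, while 0 were higher by it, against 6.37%. Intervals lay below 1 for 5 of the 8 (11.3% of all genes) and above 1 for 1 (9.78%). Among monocyte genes with at least as many UMIs as Nfkbia, 48.2% had intervals below 1 and 39.5% above. Tnf had 79 UMIs in yap1 and 112 in WT (ratio 0.540, 0.400 to 0.727), with 22 of the WT UMIs in a single cell; the ratio was 0.306 thinned to 1000 UMIs and 0.758 in Leiden clusters. Nfkbia was at 1406 CPM in yap1 and 1892 CPM in WT (ratio 0.743, 0.720 to 0.767). The receptors went apart: Tnfrsf1a was at 180.1 CPM in yap1 and 229 CPM in WT (ratio 0.785, 0.718 to 0.858), whereas Tnfrsf1b was at 205 CPM in yap1 and 167 CPM in WT (ratio 1.23, 1.12 to 1.35). Il1b, the interleukin 1 beta gene, had 1754 CPM in yap1 and 3109 CPM in WT (ratio 0.564, 0.550 to 0.579), while Zfp36, whose product destabilises Tnf mRNA, had 1494 CPM in yap1 and 1243 CPM in WT (ratio 1.202, 1.16 to 1.24). The stress and immediate early list had a median log2 of 0.18 in these cells, with -0.01 over all genes. Nonclassical monocytes differed less, with 5 of 8 ratios under 1 against 57.5% of all genes, none past 1.5-fold against 10.6% lower and 5.49% higher, and intervals below 1 for 4 (9.15% of all genes) and above 1 for 0 (5.41%). Of their genes with at least as many UMIs as Nfkbia, 22.7% had intervals below 1 and 48.2% above. Their Tnf ratio was 1.06 (0.732 to 1.55), but 0.652 once the 5 cells richest in Tnf were removed from each library; they held 60.7% of the Tnf UMIs in yap1 and 35.6% in WT.

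In neutrophils the CPM ratios of the ligand and of the feedback genes lay on opposite sides of 1. Those of Nfkbia and Nfkbiz, however, were near that of the median gene. Tnf was lower in yap1 (ratio 0.736, 0.613 to 0.883), while Tnfaip3 was higher, with 572 CPM in yap1 and 394.5 CPM in WT (ratio 1.45, 1.30 to 1.62), as were Nfkbia (ratio of 4121 over 3433 CPM, 1.16 to 1.25) and Nfkbiz (1.14, 1.07 to 1.22; 0.991 when scaled to the median gene). None of the 8 passed 1.5-fold in either direction, against 5.58% of all genes lower and 21.5% higher, and 4 of the 8 were under 1 against 32.7% of all genes. Intervals lay below 1 for 1 of the 8 (5.29% of all genes) and above 1 for 3 (20.3%). Among genes with at least as many UMIs as Nfkbia, 55.6% had intervals above 1, and 45.9% among those matched to Tnfaip3. Of all genes, 55.2% had ratios no higher than Nfkbia, 48.7% than Nfkbiz, 75.4% than Tnfaip3 and 8.65% than Tnf. Neutrophil UMIs are dominated by a few transcripts, and the median gene was itself 1.15 times higher in yap1 by CPM. Scaled to that median gene, the ratio of Tnf was still below 1 and those of Tnfaip3 and Nfkbia above it, and with each cell weighted equally Nfkbia was at 1.01. Thinned to 1000 UMIs, the Tnf ratio was 0.402. The 8 neutrophil markers summed to 205398 CPM in yap1 and 258345 CPM in WT, and 7 classical monocyte markers detected in each library to 932 CPM in yap1 and 1902.5 CPM in WT. Their part in the result was not tested.

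Lymphocytes and endothelial cells, outside the myeloid lineage, also had mostly lower values in yap1. In T cells, 7 of 8 ratios were under 1 (54.9% of all genes), 1 was lower by more than 1.5-fold (6.43% of all genes) and 0 higher (6.00%), with intervals below 1 for 6 (9.91% of all genes) and above 1 for 0 (4.83%). The one past the fold was Tnfrsf1a, at 0.620 (0.455 to 0.842, from 77 yap1 and 101 WT UMIs). Tnfrsf1b at 0.667 (0.549 to 0.809) and Nfkbia at 0.790 (0.749 to 0.833) followed. Among T-cell genes with at least as many UMIs as Nfkbia, 33.3% had intervals below 1 and 42.2% above. In NK cells or ILC1, all 7 genes measured were under 1 (50.9% of all genes) and 1, Nfkb1, was lower by more than 1.5-fold (10.4% of all genes, with 12.0% higher), with 187 CPM in yap1 and 345 CPM in WT (ratio 0.542, 0.414 to 0.706). Tnfaip3 in these cells was at 0.678 (0.597 to 0.769). Intervals lay below 1 for 4 of the 7 (6.08% of all genes) and above 1 for 0 (5.48%). Of the genes in NK cells or ILC1 with at least as many UMIs as Nfkbia, 41.2% had intervals below 1 and 30.4% above. In these 62 yap1 and 73 WT cells the T-cell markers summed to 892 CPM in yap1 (6 of 6 detected) and 371 CPM in WT (5 of 6), beside a lower Nfkb1 level in T cells (177 CPM in yap1, 207 CPM in WT) than in WT NK cells or ILC1. Free hepatocyte RNA summed to 662 CPM in yap1 and 89.6 CPM in WT. The part of either was not tested. In B cells all 8 were under 1 (54.3% of all genes) and 2 were lower by more than 1.5-fold (6.23% of all genes, with 5.30% higher), Tnf and Tnfrsf1a, both from few UMIs (3 yap1 and 26 WT for Tnf, 17 yap1 and 41 WT for Tnfrsf1a). Intervals lay below 1 for 5 of the 8 (12.3% of all genes) and above 1 for 0 (7.14%). Of B-cell genes with at least as many UMIs as Nfkbia, 41.5% had intervals below 1 and 24.6% above. With the highest Scrublet scores left out the Tnf ratio in B cells was 0.875. Neutrophil markers in the B-cell gate summed to 127 CPM in yap1 and 240 CPM in WT (7 of 8 detected in each), and nonclassical monocyte markers to 14.98 CPM in yap1 and 32.1 CPM in WT (6 of 6 in each), and their part was not tested. Nfkbia in B cells was at 236 CPM in yap1 and 321 CPM in WT (ratio 0.735, 0.680 to 0.795). Sinusoidal endothelial cells had all 6 measured genes under 1 (54.1% of all genes) and none past 1.5-fold (9.59% of all genes lower and 5.98% higher). Their intervals lay below 1 for 2 (6.60% of all genes) and above 1 for 0 (4.59%), with Nfkbia at 290 CPM in yap1 and 433 CPM in WT (ratio 0.669, 0.579 to 0.773) and Tnfrsf1a at 0.861 (0.738 to 1.002). Of endothelial genes with at least as many UMIs as Nfkbia, 18.6% had intervals below 1 and 23.1% above.

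In dendritic cells fewer of the ratios were under 1. In conventional dendritic cells 2, 2 of 8 ratios were under 1 (52.7% of all genes), 1 was higher by more than 1.5-fold (10.1% of all genes, with 10.7% lower), and all 8 intervals spanned 1 (8.10% of all genes had one below 1 and 5.80% above). The one past the fold was Tnf, from 19 yap1 and 9 WT UMIs. Neutrophil markers in this gate summed to 310.2 CPM in yap1 (7 of 8 detected) and 114 CPM in WT (5 of 8), and their part was not tested. In plasmacytoid dendritic cells, 3 of 8 were under 1 (53.3% of all genes), none was past 1.5-fold (8.69% of all genes lower and 7.83% higher), and Tnfaip3 (154 CPM in yap1, 109 CPM in WT; ratio 1.41, 1.10 to 1.81) and Nfkbiz (156 CPM in yap1, 116 CPM in WT; ratio 1.35, 1.06 to 1.72) had intervals above 1 (4.51% of all genes, with 5.97% below). Hepatocytes held at least 20 UMIs for 2 of the 8 genes only, both under 1 (38.9% of all genes) and neither past 1.5-fold (10.4% of all genes lower and 19.5% higher), and both intervals spanned 1 (6.80% of all genes below and 11.0% above). Counted by gene, Nfkbia had an interval below 1 in 8 of 12 types and above 1 in 1, Tnfaip3 below in 7 of 11 and above in 2, and Tnfrsf1a below in 5 of 12 and above in 0. Abundant genes have narrow intervals: among genes with at least as many UMIs in the same type, the share with an interval below 1 was 7.15% to 48.2% over the types for Nfkbia, 10.1% to 38.2% for Tnfaip3 and 6.80% to 33.1% for Tnfrsf1a. The share of such genes with an interval above 1 was 11.9% to 55.6% for Nfkbia, 7.65% to 45.9% for Tnfaip3 and 6.33% to 48.4% for Tnfrsf1a. Relb, at 0.795 to 1.10 over 11 types, had an interval off 1 in 0 of them.

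Within macrophages, classical monocytes and neutrophils, cells with a Tnf UMI carried more RNA of the feedback genes than cells with none in both libraries. Within nonclassical monocytes and T cells, this held in both libraries for Nfkbia only. Ratios of cells with over without Tnf spanned 1 in yap1 nonclassical monocytes for Tnfaip3 (0.948, 0.685 to 1.29) and Nfkbiz (1.14, 0.986 to 1.32). They also spanned 1 in WT T cells for Tnfaip3 (1.085, 0.9105 to 1.28) and Nfkbiz (1.197, 0.913 to 1.54). In yap1 macrophages, Nfkbia was at 1343 CPM in the 121 cells with Tnf and 893 CPM in the 402 without (1.504 times, 1.44 to 1.57). In WT macrophages it was at 2271 CPM in the 98 cells with Tnf and 1473 CPM in the 239 without (1.54 times, 1.48 to 1.61), and the cells with Tnf were also deeper, with medians of 16159.5 and 12223 UMIs in cells with and without. In classical monocytes with Tnf, Tnfaip3 was at 2.33 times (2.05 to 2.65) the level of those without in yap1 and 2.26 times (1.98 to 2.57) in WT, where the depths of cells with and without Tnf were 14473.5 and 14538 UMIs in yap1 and 12208 and 11922.5 UMIs in WT. Neutrophils with Tnf had Tnfaip3 at 2.02 times (1.75 to 2.31) the level of those without in yap1 and 2.15 times (1.81 to 2.55) in WT. Tnfrsf1a in neutrophils was at 0.914 times (0.738 to 1.12) in yap1 and 0.921 times (0.741 to 1.14) in WT.

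**Figure D3:**
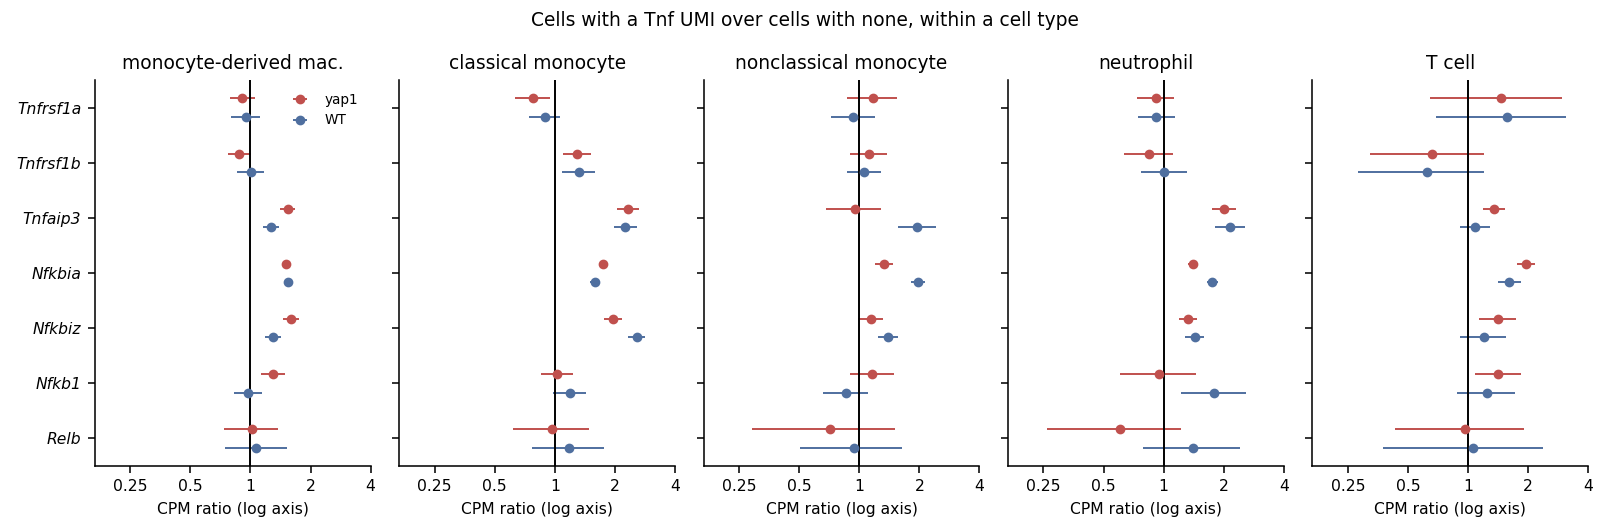
Level of the other 7 genes in cells with a Tnf UMI over that in cells with none, within 5 cell types (log axis; points are ratios of CPM in the yap1 and WT libraries, bars 95% counting intervals). Nfkbia lies above 1 in every type and library shown; Tnfrsf1a spans 1 everywhere but in yap1 classical monocytes.

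Among macrophages the genotype difference was present in both kinds of cell: Nfkbia was at 1343 CPM in yap1 cells with Tnf and 2271 CPM in WT cells with Tnf, and at 893 CPM in yap1 cells without and 1473 CPM in WT cells without. The shares of macrophages with a Tnf UMI, 23.1% in yap1 and 29.1% in WT, stood beside a deeper yap1 library.

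Across the 12 types and 2 libraries, which give 24 points that share libraries and depths, the genes most like each of the 8 were found by Pearson correlation of log2(CPM + 1) among 10052 genes. Nfkbia was closest to Nfkbiz (r = 0.962), while Nfkbiz was closest to Pim1, a kinase gene (0.963), with Nfkbia next. Pim1 was also close to Nfkbia (0.961) and the nearest to Tnfaip3 (0.879). Tnf was nearest to Apobr (0.894), Tnfrsf1b to Myo1f (0.931), Tnfrsf1a to St3gal4 (0.913), Nfkb1 to Rusc1 (0.950) and Relb to Ep300 (0.977). Between the receptors r was 0.32, and between Nfkb1 and Relb 0.89. Migratory dendritic cells, the type highest for Relb, are not among the 12 types, and hepatocytes held 0 Relb UMIs in each library. The part of the hepatocyte values in the Relb correlations was not tested. These values describe levels across cell types and carry no test.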

How the data were processed

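Raw UMI counts per gene and barcode, as the authors deposited them, were used for 1 yap1 and 1 WT library. The submitters' processing notes name mm10, Bowtie 0.12.2 and Seurat without roles; the counting software, annotation, chemistry, strand setting and choice of barcodes are not given in the sources used here. Counts were not rescaled by the authors, as far as the values show (whole numbers with unequal totals).

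A barcode was kept if it had 500 UMIs and 200 genes or more and no more than 20% of its UMIs from mitochondrial genes. Each was scored on 19 marker lists (mean log2(1 + UMIs per 10000)), scaled from 0 at the median to 1 at the 99.5th percentile, and assigned where at least 3 markers had a UMI and the score reached 0.25. A barcode whose score for another lineage exceeded 0.5 of its own was called mixed and left out (115 yap1, 166 WT), and 197 yap1 and 271 WT barcodes stayed unassigned. This was the treatment of doublets; Scrublet scores served as an alternative. The dendritic cell 1 gate was left out, since Xcr1 had a UMI in 34.0% and Clec9a in 48.1% of its cells. Of the T-cell markers, 2 were not in the gene list. A division of the neutrophils by marker genes is not reported here.

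UMIs were summed per type and library; CPM have exact Poisson intervals, shares have Clopper-Pearson intervals, and ratios have exact conditional binomial intervals, which were checked on simulated counts. A floor is 3 counts. UMIs of 1 cell are not independent of its other UMIs, so intervals are too narrow for cells. Genes with at least 20 UMIs entered the counts. With 1 library per genotype no p-value was computed. Genes named from the pathway lists are among the 2 highest and 2 lowest ratios of a list with at least 50 UMIs. Not all of these are named in the text. The members and lists were chosen with earlier results of these data known. Alternatives (10 for the ratios) changed the filters, the doublet rule, the classes (Leiden clusters), the scaling, the weighting of cells, the depth and the most extreme cells. The 8 genes were placed by GENCODE M21 on GRCm38 (mm10), which held 27645 of the 27998 gene IDs. Python 3.11.15, numpy 2.4.6, scipy 1.17.1 and scanpy 1.11.5 were used.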

Additional observations from a re-analysis of the deposited data

Results flagged for a closer look

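For 4 of the 8 genes, the ratio of yap1 over WT had a counting interval above 1 in one cell type and below 1 in another. These are values of 1 library per genotype. The share of all genes that meet this rule over the types was not computed, so whether 4 of 8 is unusual was not tested. Abundant genes have narrow intervals, and among genes with at least as many UMIs as Nfkbia intervals on either side of 1 were frequent in most types. Tnfaip3 was at 1.45 in neutrophils and 0.588 in Kupffer cells. Nfkbia was at 1.2 in neutrophils and 0.572 in monocyte-derived macrophages. Nfkbiz was at 1.35 in plasmacytoid dendritic cells and 0.496 in Kupffer cells. Tnfrsf1b was at 1.23 in classical monocytes and 0.667 in T cells. The difference between the types was not tested in any of these. With cells weighted equally the Kupffer ratios were 0.906 for Tnfaip3 and 0.949 for Nfkbiz, and Nfkbia in neutrophils was at 1.01; thinned to 1000 UMIs, Nfkbiz in Kupffer cells was at 1.003. In neutrophils the median gene was 1.15 times higher in yap1, beside which the Nfkbia ratio stands.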

How the results depend on the processing

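Of 860 ratios recomputed under 10 alternatives, 771 stayed within the counting interval of the reported value, 88 moved outside it and 1, Nfkbiz in Kupffer cells thinned to 1000 UMIs, lost its direction at 1.003; 58 changed sides of 1. Thinning to 1000 UMIs accounted for 45 of the 88. In monocyte-derived macrophages Tnf ranged from 0.321 to 0.605, Nfkbia from 0.564 to 0.639, Nfkbiz from 0.567 to 0.824 and Tnfaip3 from 0.645 to 0.797, all below 1 in 10 of 10. In classical monocytes Tnf ranged from 0.306 to 0.758, and in neutrophils Tnf from 0.402 to 0.852 and Tnfaip3 from 1.19 to 1.56. In Kupffer cells Tnf ran from 0.169 without the 5 cells with most UMIs to 2.01 thinned. In B cells Tnf was 0.875 with the 4% highest Scrublet scores left out. The number of genes with a ratio under 1 became 3 in Kupffer cells and 5 in B cells when thinned, 8 in nonclassical monocytes by Leiden classes, 4 in conventional dendritic cells 2 with the stricter filter, and 1 in hepatocytes with no cell filter, with Leiden classes, with cells weighted equally and when thinned. The causes were not tested. No Leiden class matched NK cells or ILC1, so that alternative gave no value. No paired analysis was possible because each genotype has 1 library. Few Tnf UMIs were counted in Kupffer, T, NK and B cells, and few UMIs of any of the 8 genes in hepatocytes, so the ratios there are imprecise.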
